A study of Rattus norvegicus with 17 samples.

Results

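The genes described here are 39 named components of the rat peroxisome. They were chosen by what their proteins do, but with earlier results of these data known. They cover the biogenesis factors known as peroxins (Pex genes), the enzymes of peroxisomal beta- and alpha-oxidation, membrane transporters and acyl-CoA handling enzymes, the enzymes that start ether lipid synthesis, and redox, protease and membrane proteins. Of the 39, 37 were listed among the 17251 genes of the expression table and 35 were among the 13105 genes that passed the filter on low values, which was at least 1 TPM (a transcript's share of the library, corrected for its length) in at least 3 rats. Expression of Pex19 and Eci2 was not analysed here, and Abcd2 and Acox2 were listed below the filter.

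RNA was sequenced from the meibomian glands (MG) of 17 female Sprague-Dawley rats, 10 to 12 weeks old, to compare the effect of UVB light between 2 genotypes. Wild-type (WT) rats carried no transgene, while P1.hMR rats carried the human mineralocorticoid receptor gene NR3C2 under its own P1 proximal promoter, so that the transgene is active wherever the receptor is normally made and not in the gland alone. Eyelids were irradiated with UVB for 5 days in the UVB groups and left without UVB in the control groups, which gave 4 Control WT and 3 UVB WT rats, and 5 Control P1.hMR and 5 UVB P1.hMR rats. The glands were dissected whole, so each value is an average over meibocytes, ducts and neighbouring tissue, and fewer cells of a type cannot be told apart from less RNA per cell.

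Peroxisomes are small organelles bounded by a single membrane that shorten very-long-chain and branched fatty acids, begin the synthesis of ether lipids and break down the hydrogen peroxide that their oxidases make. They hold no DNA, so every protein is imported: peroxins receive cargo in the cytosol, dock it at the membrane and recycle the receptor. The MG is a holocrine sebaceous gland of the eyelid whose meibocytes fill with very-long-chain wax and cholesteryl esters and burst to release them as meibum.

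The promoters of 36 of the 39 genes were found by symbol in RefSeq (build GRCr8), and those of Ech1, Pex2 and Pex6 were not. They were searched on both strands, over the 250 bases before the annotated start, for the GC box GGGCGG, the CCAAT box CCAAT, the nuclear receptor core AGGTCA, its direct repeat AGGTCANAGGTCA and the antioxidant response core TGACNNNGC; the direct repeat contains the single core. A GC box was present in 29 of 36 promoters (80.6%), against 56.6% of the 10968 promoters of tested genes and 30.5% of all 33469 promoters. The median GC content was 60.8% in the peroxisome set and 60.0% for the tested genes. CCAAT was found in 15 promoters (41.7%, against 34.6% of tested genes), AGGTCA in 7 (19.4%, against 11.0%), TGACNNNGC in 3 (8.33%, against 12.7%) and the direct repeat in 0 (against 0.0365%). These are counts of letters in a window and not of bound sites. The promoters of 4 genes that the results below turn on are printed 5′ to 3′, with GC boxes, CCAAT boxes and AGGTCA of either strand in capitals. Gnpat and Agps encode the pair of enzymes that start ether lipid synthesis. Hacl1 had the set's highest log2 fold change after UVB averaged over genotypes, and Prdx5 was the set's most abundant transcript.
Gnpat (chr19:69719457-69719706, plus strand): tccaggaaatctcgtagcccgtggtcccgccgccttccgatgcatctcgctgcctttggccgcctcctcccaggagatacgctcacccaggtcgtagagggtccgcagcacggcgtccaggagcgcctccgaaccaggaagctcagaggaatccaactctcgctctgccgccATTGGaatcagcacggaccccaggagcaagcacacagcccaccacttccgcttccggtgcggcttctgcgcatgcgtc
Agps (chr3:81154349-81154598, plus strand): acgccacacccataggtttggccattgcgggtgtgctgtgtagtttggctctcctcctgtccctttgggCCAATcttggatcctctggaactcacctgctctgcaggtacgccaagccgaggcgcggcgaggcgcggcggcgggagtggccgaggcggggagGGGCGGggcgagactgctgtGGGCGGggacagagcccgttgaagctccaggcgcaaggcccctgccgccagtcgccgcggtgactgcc
Hacl1 (chr16:6869411-6869660, minus strand): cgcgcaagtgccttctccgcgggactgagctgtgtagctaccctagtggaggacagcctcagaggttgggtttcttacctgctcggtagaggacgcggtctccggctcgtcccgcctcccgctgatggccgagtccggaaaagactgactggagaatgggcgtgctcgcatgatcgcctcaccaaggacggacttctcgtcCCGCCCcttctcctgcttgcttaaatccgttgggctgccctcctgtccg
Prdx5 (chr1:213532028-213532277, minus strand): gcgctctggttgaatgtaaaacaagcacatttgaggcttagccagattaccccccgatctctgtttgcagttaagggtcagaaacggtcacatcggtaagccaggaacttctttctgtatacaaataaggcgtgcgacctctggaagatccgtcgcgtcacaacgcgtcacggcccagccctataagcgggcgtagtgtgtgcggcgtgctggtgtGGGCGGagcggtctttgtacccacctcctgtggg
Agps held 2 GC boxes and 1 CCAAT box, Gnpat 1 CCAAT box and no GC box, and Hacl1 and Prdx5 1 GC box each. None of the 4 held AGGTCA.

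Expression was deposited as TPM, which corrects for transcript length and keeps no read depth, so the depth behind each value is unknown and precision was taken from the spread between rats. Between 12372 and 12737 genes reached 1 TPM in each rat. The tissue label was checked against markers: all 12 meibocyte markers were above 1 TPM in every rat, led by the desaturase Scd at a mean of 26900 TPM. Markers of other cells were present too, with 7 of 9 skeletal muscle markers listed (Acta1 highest at a mean of 775 TPM), 6 of 6 hair follicle markers (Krt71, 245 TPM), 4 of 4 keratinocyte markers (Krt14, 6330 TPM) and 5 of 6 macrophage markers above 1 TPM in every rat (C1qa, 37 TPM). No defining marker of these types was at 0 in any rat.

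Peroxisome genes were strongly expressed in the gland. The median of their mean TPM was 80.1 over the 37 listed genes. Over the 35 tested genes it was 85.2, against 15.9 for all genes tested. A mean of at least 100 TPM was reached by 13 of the 37, against 8.07% of all listed genes, and 18 of the 37 were among the highest 10% of listed genes. Summed over the set, expression lay between 5670 and 7080 TPM per rat. These levels are not those of peroxisomes alone, since some of the proteins, such as Prdx5 and Ech1, are also found in mitochondria. The highest sum belonged to Control WT rat 1, which also had the highest summed level of meibocyte lipid genes, 71400 TPM.

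**Figure D1:**
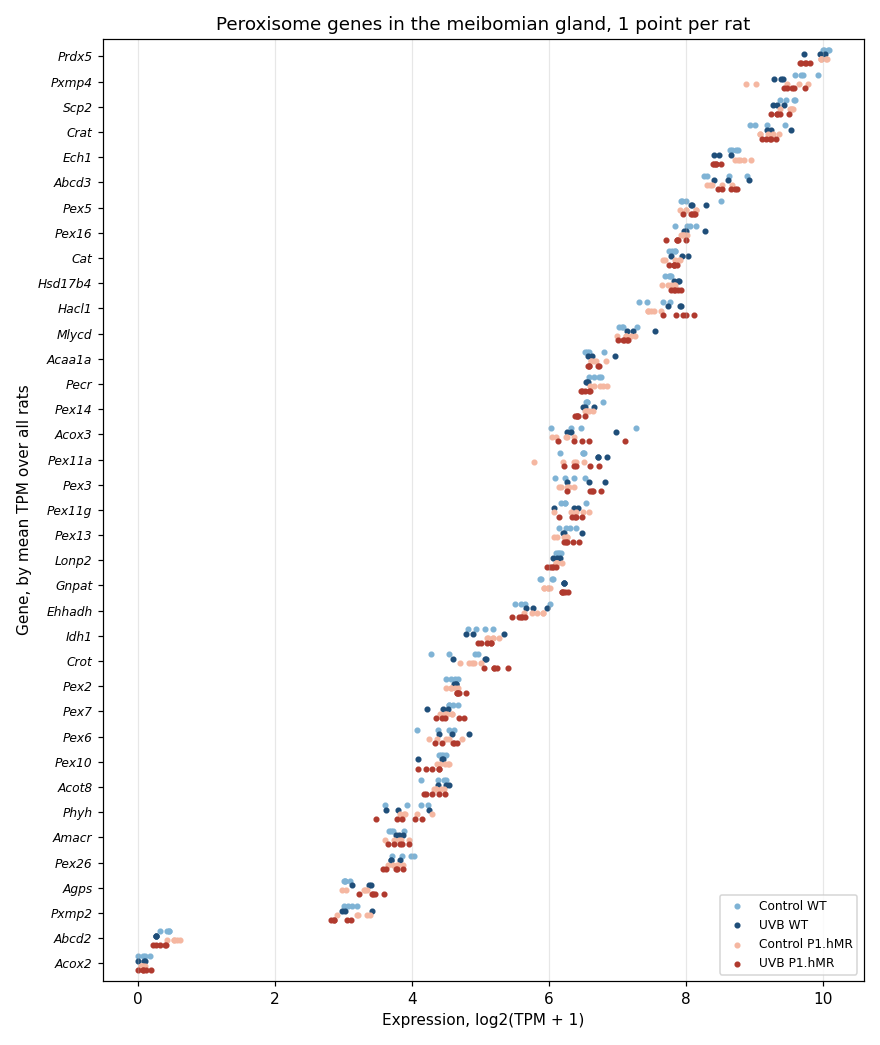
Expression of the 37 listed peroxisome genes on a log2(TPM + 1) axis, 1 point per rat, coloured by group and ordered by mean TPM. The genes span from Prdx5 (mean 967 TPM) to Acox2 (mean 0.0582 TPM), and within most genes the 4 groups lie on top of each other.

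Levels differed widely between roles and between enzymes of 1 pathway. Prdx5, a peroxiredoxin that reduces peroxides in peroxisomes, mitochondria and cytosol, had the highest mean, 967 TPM, and ranged from 812.14 to 1084.97 TPM over the 17 rats. Pxmp4, a membrane protein whose function is not well defined, followed at 734 TPM, ahead of the sterol carrier and thiolase Scp2 at 691 TPM and the carnitine acetyltransferase Crat at 593 TPM. The ranges of Pxmp4 (467.6 to 968.75 TPM), Scp2 (600.59 to 772.94 TPM) and Crat (488.45 to 740.05 TPM) overlapped one another. Ech1, a dienoyl-CoA isomerase for unsaturated fatty acids, was next at 396 TPM, and the acyl-CoA transporter Abcd3 (PMP70) had a mean of 378 TPM. The leading peroxins were Pex5, the import receptor for most matrix enzymes, at 272 TPM, and Pex16, which inserts membrane proteins, at 250 TPM. Catalase (Cat) had a mean of 227 TPM. Hsd17b4, the D-bifunctional enzyme of very-long-chain and branched-chain beta-oxidation, had a mean of 223 TPM, and Ehhadh, the L-bifunctional enzyme, had 51.7 TPM.

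At the other end, the acyl-CoA transporter Abcd2 was at 0.17 to 0.54 TPM and the bile acid-type oxidase Acox2 at 0 to 0.14 TPM in every rat. Acox3, the oxidase for branched chains, was at 88.3 TPM on average. Alpha-oxidation, which removes a single carbon from branched or hydroxylated fatty acids, was carried by unequal transcripts, with the lyase Hacl1 at 209 TPM and the phytanoyl-CoA hydroxylase Phyh at 14.5 TPM. Ether lipid synthesis was likewise unequal, with Gnpat at 67.2 TPM and Agps at 8.56 TPM. Acaa1a (100 TPM) shares much of its sequence with Acaa1b, so its level is uncertain.

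The rats of 1 group varied among themselves about as much for peroxisome genes as for other genes. The median within-group SD was 0.124 on the log2 scale, against 0.126 for all genes tested. Acox3 varied most, with an SD of 0.366, and ranged from 64.66 to 152.93 TPM within the Control WT rats alone. Lonp2, the peroxisomal Lon protease, varied least, from 61.56 to 71.87 TPM over all rats.

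The first comparison asked how UVB changed these genes, averaged over both genotypes. None of the 35 tested genes was called a DEG by limma, where a call needed a p under 0.05 after Benjamini-Hochberg adjustment and a log2 fold change of 0.5 or more in either direction on the log2(TPM + 1) scale. The background was 9.48% of all genes tested, and 14 of the 35 had an unadjusted p under 0.05, against 54% of all genes. The log2 fold changes of the 35 ran from -0.28 to 0.36 with a median of 0.03, against a median of -0.01 for all genes. Their median absolute change was 0.10, against 0.14 for all genes. The 35 were expressed more highly than that background (median 85.2 against 15.9 TPM), and no background matched for level was used. An absolute change of at least 0.25 was seen for 17.1% of the set and 28.3% of all genes, and one of at least 0.4 for 0% and 14.6%. For 32 of the 35 genes the 95% interval of the change lay within 0.5 of 0 in either direction, against 78.3% of all genes. The exceptions were Acox3, Hacl1 and Crot, whose upper bounds were 0.51, 0.51 and 0.5.

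**Figure D2:**
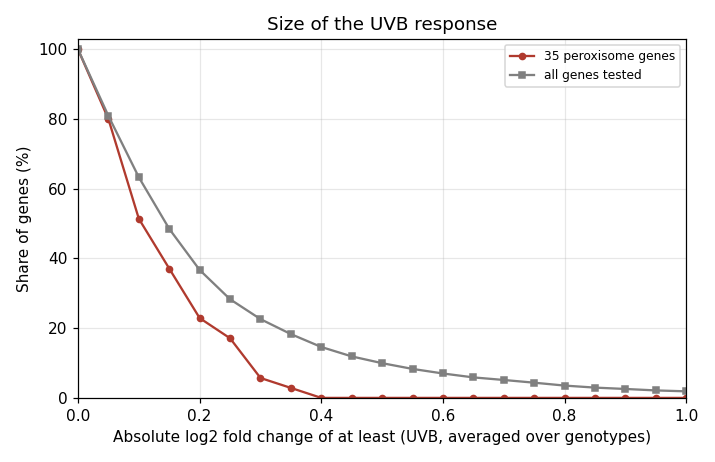
Share of genes (vertical axis, percent) whose absolute log2 fold change after UVB, averaged over genotypes, was at least the value on the horizontal axis, for the 35 peroxisome genes and for all 13105 genes tested. The peroxisome line lies below that of all genes from 0.1 upward and reaches 0 at 0.4, where 14.6% of all genes remain.

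Smaller shifts were resolved. By adjusted p alone, 12 of the 35 genes differed between UVB and control rats, 7 higher and 5 lower, against a background of 47.2% of all genes (23.3% higher and 24% lower). The 7 that were higher were Hacl1, Crot, Pex3, Pex11a, Gnpat, Agps and Hsd17b4, and the 5 that were lower were Ech1, Prdx5, Pecr, Scp2 and Pex10. The largest was 0.36 on the log2 scale. With each rat left out in turn, the number ran from 10 to 15.

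**Figure D3:**
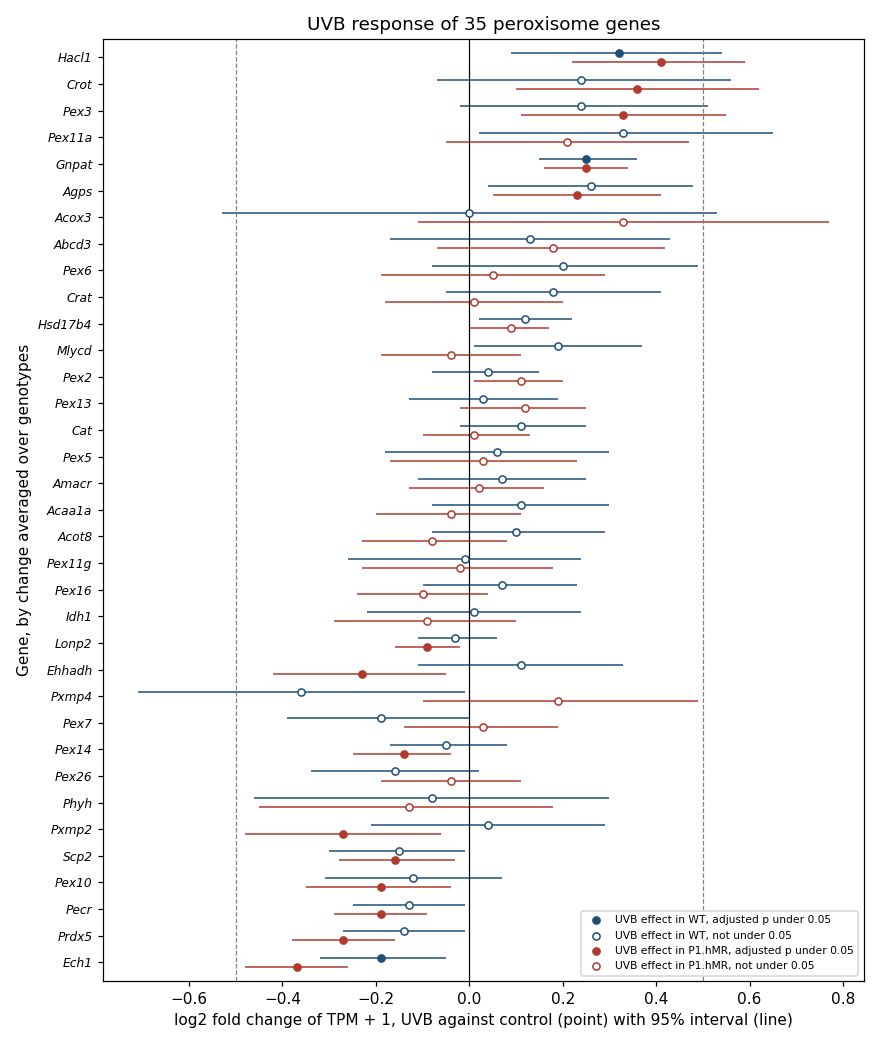
UVB response of the 35 tested peroxisome genes for each genotype as the log2 fold change of TPM + 1 (points) with its 95% interval (lines). Filled points have an adjusted p under 0.05 and dashed lines mark 0.5 in either direction. All points lie within the dashed lines, between -0.37 and 0.41.

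The ether lipid enzymes were both higher after UVB. Gnpat, which attaches the acyl chain that begins an ether lipid, stood at 65.98, 64.96, 58.18 and 57.49 TPM in Control WT rats and at 73.64, 73.53 and 73.41 TPM in UVB WT rats. Its values in P1.hMR rats were 62.69, 59.7, 62.12, 63.59 and 60 TPM without UVB and 74.48, 72.6, 76.5, 71.98 and 71.72 TPM with UVB. Every UVB rat was above every control rat, and Gnpat was the only one of the 35 genes of which this was true, against a background of 10.8% of all genes (5.51% higher and 5.33% lower). Averaged over genotypes, the log2 fold change was 0.25 (SE 0.03, adjusted p = 1.26e-05 from limma), with 0.25 in WT (SE 0.05, adjusted p = 0.00224) and 0.25 in P1.hMR rats (SE 0.04, adjusted p = 0.000187). Its adjusted p stayed under 0.05 in all 27 alternatives run for the averaged response.

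Agps, which exchanges that acyl chain for a fatty alcohol and so forms the ether bond, was measured at 7.05, 7.14, 7.13 and 7.59 TPM in Control WT and 9.53, 7.72 and 9.41 TPM in UVB WT rats. In P1.hMR rats it was at 6.91, 9.12, 7.22, 8.93 and 8.84 TPM without UVB and 9.75, 9.74, 8.38, 11.13 and 10 TPM with UVB. The WT groups did not overlap, while UVB P1.hMR rat 3 lay among the Control P1.hMR rats. The averaged log2 fold change was 0.25 (SE 0.07, adjusted p = 0.00603 from limma). Gnpat and Agps together summed to between 65.1 and 73 TPM in the control rats and between 81.2 and 84.9 TPM in the UVB rats. That sum mostly repeats Gnpat, which had a mean of 67.2 TPM against 8.56 TPM for Agps.

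In alpha-oxidation, Hacl1, which cleaves a hydroxylated fatty acyl-CoA, had the largest averaged change of the set. It was at 216.18, 158.3, 171.04 and 202.33 TPM in Control WT and 211.76, 243.38 and 240.68 TPM in UVB WT rats. The P1.hMR values were 197.06, 184.02, 178.52, 173.05 and 173.75 TPM without UVB and 247.92, 229.4, 275.89, 201.53 and 254.91 TPM with UVB. The P1.hMR groups did not overlap, and the WT groups did because Control WT rat 1 was above UVB WT rat 1. Averaged over genotypes its log2 fold change was 0.36 (SE 0.07, adjusted p = 0.000455 from limma), and it stayed under the threshold in all 27 alternatives. Phyh, the preceding hydroxylase of phytanic acid, was at 10.11 to 18.67 TPM over all rats and did not pass.

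**Figure D4:**
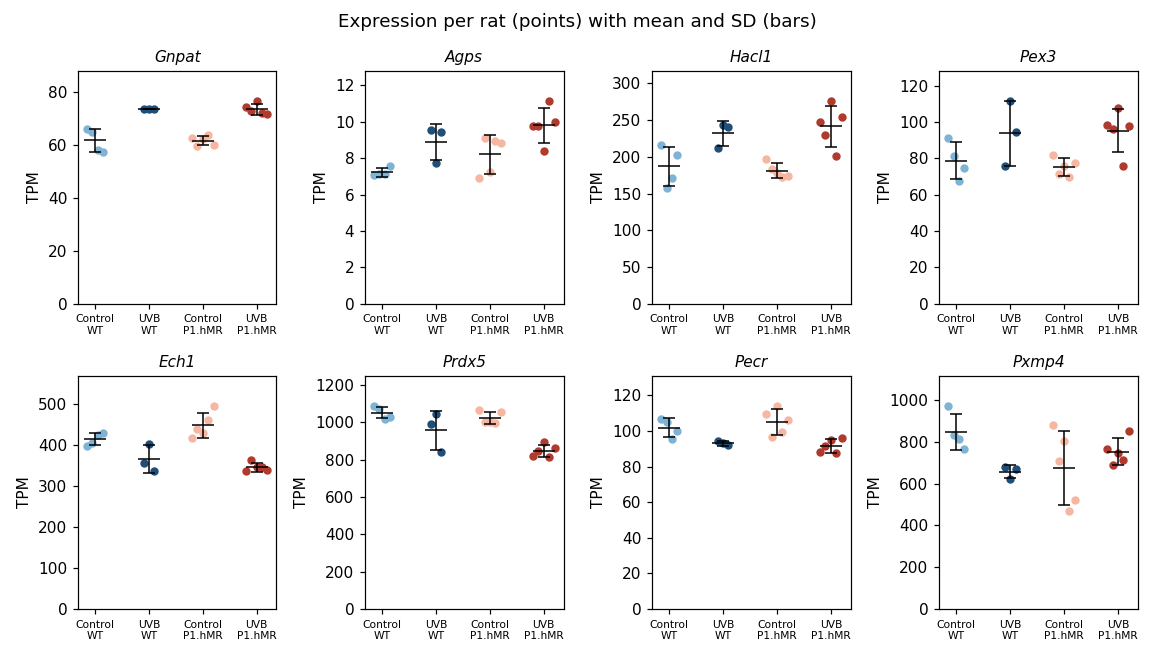
TPM of 8 peroxisome genes in each rat (points) by group, with the group mean and SD (bars) on linear axes that start at 0. Gnpat is higher in all 8 UVB rats than in all 9 control rats, Ech1 and Prdx5 have their lowest means in the UVB P1.hMR rats, and Pxmp4 is low in 2 of the 5 Control P1.hMR rats.

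Of the 8 tested genes grouped here under beta-oxidation, 1 was higher and 3 were lower by adjusted p, 4 of 8 beside the background of 47.2%. The reductase Pecr, 1 of the 3 lower genes, is in the group by this grouping only. The median log2 fold change of the 8 was -0.01. Ech1 was at 399.13, 406.32, 424.88 and 429.83 TPM in Control WT rats and at 356.29, 403.44 and 337.12 TPM in UVB WT rats. It was at 418.07, 440.91, 429.99, 461.18 and 494.89 TPM in Control P1.hMR rats and at 336.14, 364.48, 347.32, 346.27 and 339.73 TPM in UVB P1.hMR rats. All UVB P1.hMR rats were below all Control P1.hMR rats, while UVB WT rat 2 lay within the Control WT range. Its averaged log2 fold change of -0.28 (SE 0.04, adjusted p = 4.71e-05 from limma) was the lowest in the set and held its side of the threshold in all 27 alternatives. Ech1 is also found in mitochondria, so its level is not that of peroxisomes alone.

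Pecr, an enoyl-CoA reductase, was lower as well, with means of 93 ± 1.24 TPM (SD, n = 3) in UVB against 102 ± 5.22 TPM (SD, n = 4) in control WT rats. In P1.hMR rats the UVB mean was 91.5 ± 3.74 TPM (SD, n = 5) against a control mean of 105 ± 7.16 TPM (SD, n = 5). The groups did not overlap within either genotype, and the averaged log2 fold change was -0.16 (SE 0.04, adjusted p = 0.00207 from limma). Scp2 had an averaged log2 fold change of -0.15 (SE 0.05, adjusted p = 0.0107 from limma), with control values of 658.46 to 772.94 TPM and UVB values of 600.59 to 723.61 TPM that overlapped. Hsd17b4 was the member on the other side, at 199.13 to 227.79 TPM in control rats and 219.3 to 241.39 TPM in UVB rats, with a log2 fold change of 0.10 (SE 0.03, adjusted p = 0.0134 from limma). Its adjusted p rose to 0.0953 under quantile normalization. The thiolase Acaa1a, the racemase Amacr, Acox3 and Ehhadh did not pass.

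Among the peroxins, 3 of 12 passed by adjusted p, 2 higher and 1 lower, beside the background of 47.2%, and the median log2 fold change of the 12 was 0.01. Pex3, which docks the carrier of membrane proteins on the organelle, had a mean of 93.9 ± 18 TPM (SD, n = 3) after UVB and 78.6 ± 10.2 TPM (SD, n = 4) without it in WT rats. Its P1.hMR means were 95.3 ± 11.7 TPM (SD, n = 5) after UVB against 75.2 ± 4.82 TPM (SD, n = 5) for controls. In each genotype 1 UVB rat fell within the control range, at 75.58 TPM in WT and 75.97 TPM in P1.hMR rats. The averaged log2 fold change was 0.29 (SE 0.08, adjusted p = 0.00911 from limma). Pex11a, which elongates the membrane before division, was at 103.78 to 113.96 TPM in UVB WT rats, above the 70.87 to 90.6 TPM of the Control WT rats. In P1.hMR rats its ranges of 73.85 to 105.59 TPM with UVB and 53.74 to 89.92 TPM without overlapped. Its averaged log2 fold change of 0.27 (SE 0.10, adjusted p = 0.0273 from limma) lost the threshold without Control WT rat 3 (adjusted p = 0.0605) and without UVB WT rat 2 (adjusted p = 0.0661).

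Pex10, a ubiquitin ligase that marks import receptors for recycling, was lower by -0.15 (SE 0.06, adjusted p = 0.0369 from limma), with 19.71 to 22.2 TPM in control rats and 15.94 to 20.91 TPM in UVB rats. The change was near the limit of what these rats resolve. Its adjusted p passed 0.05 without Control WT rat 2 (0.0581) or 4 (0.0666), Control P1.hMR rat 3 (0.0601), 4 (0.053) or 5 (0.0601), UVB WT rat 3 (0.141), or UVB P1.hMR rat 2 (0.0595) or 3 (0.0604). The receptor Pex5, the most abundant peroxin, had a log2 fold change of 0.05 (SE 0.07, adjusted p = 0.634 from limma) and a 95% interval from -0.11 to 0.20. Without Control WT rat 1, where Pex5 stood at 364.38 TPM, the change was 0.11 with an adjusted p of 0.0451. The peroxins Pex7, Pex13, Pex14, Pex2, Pex6, Pex26, Pex16 and Pex11g did not pass in the averaged response.

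Of 5 tested genes for transport and acyl-CoA handling, 1 passed by adjusted p, beside the background of 47.2%. Crot, which loads shortened acyl chains onto carnitine for export to mitochondria, was at 18.33, 29.28, 22.2 and 30.35 TPM in Control WT and 32.46, 23.37 and 32.96 TPM in UVB WT rats. It was at 24.94 to 31.23 TPM in Control P1.hMR and 32.17 to 41.23 TPM in UVB P1.hMR rats, without overlap. The averaged log2 fold change was 0.30 (SE 0.10, adjusted p = 0.0175 from limma), which lost the threshold without UVB WT rat 1 (adjusted p = 0.0512) or UVB WT rat 3 (adjusted p = 0.055). Crat, which handles acetyl groups, had a log2 fold change of 0.10 (SE 0.07, adjusted p = 0.285 from limma). Abcd3, the thioesterase Acot8 and the malonyl-CoA decarboxylase Mlycd did not pass.

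In the redox, protease and membrane group 1 of 6 passed by adjusted p, beside the same background of 47.2%. Prdx5 was at 1084.97, 1070.92, 1020.13 and 1030.42 TPM in Control WT and 989.08, 1042.1 and 838.75 TPM in UVB WT rats. The P1.hMR rats had 1064.38, 999.22, 1003.89, 997.36 and 1055.58 TPM without UVB and 819.8, 847.23, 893.97, 812.14 and 863.7 TPM with UVB. All UVB P1.hMR rats were below all Control P1.hMR rats, and UVB WT rat 2 was within the Control WT range. The averaged log2 fold change was -0.21 (SE 0.04, adjusted p = 0.000546 from limma) and kept its side of the threshold in all 27 alternatives. Catalase, the other main peroxide-removing enzyme of the organelle, did not pass, with means of 241 ± 20.7 TPM (SD, n = 3) after UVB and 222 ± 6.8 TPM (SD, n = 4) without it in WT rats. The P1.hMR means were 225 ± 6.72 TPM (SD, n = 5) after UVB against 223 ± 17.5 TPM (SD, n = 5) for controls. The NADP-dependent dehydrogenase Idh1, Lonp2, the channel protein Pxmp2 and Pxmp4 did not pass either.

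Within WT rats, no member was called a DEG by limma (background 7.91%), and 11 of the 35 had an unadjusted p under 0.05, against 35.3% of all genes. Those 11 became 4 without UVB WT rat 3, 6 without Control WT rat 3 and 7 without UVB WT rat 2. The 95% interval lay within 0.5 of 0 for 29 of them, against 69.8%. By adjusted p alone Gnpat and Hacl1 were higher and Ech1 lower, 3 of 35 against a background of 21.5% (11.2% higher and 10.3% lower). Hacl1 had a log2 fold change of 0.32 (SE 0.11, adjusted p = 0.042 from limma) and Ech1 one of -0.19 (SE 0.06, adjusted p = 0.0439 from limma). The number went to 5 without Control WT rat 1 and to 1, Gnpat, without Control WT rat 2 or 3, Control P1.hMR rat 2 or UVB P1.hMR rat 1. Hacl1 also lost the threshold without Control P1.hMR rat 3 or UVB WT rat 2 or 3, up to an adjusted p of 0.133, and Ech1 without Control WT rat 4, UVB WT rat 1 or 3, or UVB P1.hMR rat 3, 4 or 5, up to 0.193. Under median-of-ratios scaling the split was 1 higher and 1 lower. UVB and control WT rats did not overlap for 4 genes that were higher and 3 that were lower, 7 of 35 against a background of 26.6% (14% higher and 12.6% lower).

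Within P1.hMR rats, again no member was called by limma (background 10.8%), and 16 had an unadjusted p under 0.05, against 47.6% of all genes. The 95% interval lay within 0.5 of 0 for 31 of the 35, against 71.8%. By adjusted p alone, 14 of 35 differed, 5 higher and 9 lower, against a background of 39.1% (18.5% higher and 20.6% lower). Higher were Agps, Crot, Gnpat, Hacl1 and Pex3. Lower were Ech1, Ehhadh, Lonp2, Pecr, Pex10, Pex14, Prdx5, Pxmp2 and Scp2. The 3 genes of the WT comparison were among the 14. That comparison had 3 UVB and 4 control rats and this one 5 of each, so the 2 counts do not compare the size of the responses. The split depended on scaling, since median-of-ratios scaling gave 6 higher and 3 lower. The largest changes were 0.41 for Hacl1 (SE 0.09, adjusted p = 0.00169 from limma) and -0.37 for Ech1 (SE 0.05, adjusted p = 5.42e-05 from limma), followed on the lower side by -0.27 for Prdx5 (SE 0.05, adjusted p = 0.000599 from limma). Gnpat, Hacl1, Ech1, Prdx5 and Pecr kept an adjusted p under 0.05 in all 28 alternatives, and the other 9 lost it in between 2 and 20 of them. The number of 14 was 6 without Control P1.hMR rat 3 or UVB P1.hMR rat 4, 7 without UVB P1.hMR rat 3, 8 without Control P1.hMR rat 4 or 5, and 9 without UVB P1.hMR rat 2 or 5. The groups did not overlap for 3 genes that were higher and 4 that were lower, 7 of 35 against a background of 27.2% (13.2% higher and 14% lower).

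The WT and P1.hMR responses share no rats. The sign was the same in both for 25 of the 35 genes (71.4%), against 80.4% of all genes. Pearson's r across the 35 genes was 0.55 and Spearman's rho 0.58, against 0.83 and 0.79 across all genes. The range of change in the set was narrow, and genes of 1 tissue are not independent replicates.

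The genotype comparisons asked whether P1.hMR rats differed from WT rats. Without UVB no member was called by limma (background 0.00763%, 1 gene of 13105), and Pxmp4 was the only member with an unadjusted p under 0.05, against 4.03% of all genes. Under UVB no member was called either (background 0.0229%), with 5 members at an unadjusted p under 0.05 (10.3% of all genes), namely Pex16, Pex14, Ehhadh, Prdx5 and Mlycd. The smallest adjusted p was 0.336. These counts turned on single rats. The 1 member without UVB became 0 without Control P1.hMR rat 4 or 5, 4 without Control WT rat 4, 3 without Control P1.hMR rat 1, and 2 without Control WT rat 3, Control P1.hMR rat 3 or any 1 of the UVB WT rats. The 5 under UVB became 1 without UVB WT rat 2 and 3 without UVB P1.hMR rat 3 or 4. Without UVB WT rat 3 they became 9, and Prdx5 was then lower in P1.hMR than in WT rats at an adjusted p under 0.05 by limma. The 95% interval lay within 0.5 of 0 for 33 of the 35 genes without UVB (88.9% of all genes) and for 31 under UVB (84.4%).

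The interaction asked whether UVB acted differently in the 2 genotypes. No member was called by limma (background 0%), 3 had an unadjusted p under 0.05 (6.92% of all genes), and the 95% interval lay within 0.5 of 0 for 27 of 35 (70.4%). The 3 became 5 without Control WT rat 1, UVB WT rat 1 or 3, or UVB P1.hMR rat 2. Pxmp4 had the largest difference. It was at 968.75, 832.07, 813.96 and 766.99 TPM in Control WT and 678.26, 620.81 and 670.42 TPM in UVB WT rats, so the WT groups did not overlap. In P1.hMR rats it was at 878.98, 706.54, 802.55, 467.6 and 519.19 TPM without UVB and 762.87, 687.26, 745, 711.79 and 852.78 TPM with UVB, and Control P1.hMR rats 4 and 5 were below all others. The log2 fold change was -0.36 in WT (SE 0.17, adjusted p = 0.133 from limma) and 0.19 in P1.hMR rats (SE 0.14, adjusted p = 0.282 from limma), a difference of 0.55 (SE 0.22, adjusted p = 0.704 from limma). The P1.hMR value rested on Control P1.hMR rats 4 and 5: over the alternatives it ran from 0.07, without rat 4, to 0.30.

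Ehhadh had a log2 fold change of 0.11 in WT (SE 0.10, adjusted p = 0.473 from limma) and -0.23 in P1.hMR rats (SE 0.09, adjusted p = 0.0394 from limma). Its values were 44.45 to 63.5 TPM in Control WT, 49.51 to 61.85 TPM in UVB WT, 48.69 to 59.25 TPM in Control P1.hMR and 42.88 to 49.35 TPM in UVB P1.hMR rats. The WT value ran from 0.02 without UVB WT rat 2 to 0.22 without Control WT rat 4. Leaving out Control P1.hMR rat 2, 3, 4 or 5 or UVB P1.hMR rat 2, 3, 4 or 5 took the P1.hMR adjusted p to between 0.0512 and 0.0913. The difference between genotypes was -0.35 (SE 0.13, adjusted p = 0.704 from limma). For Ech1 the difference was -0.18 (SE 0.08, adjusted p = 0.711 from limma). None of the 3 differences passed adjustment over all genes.

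Other genes of the pathway were read from a separate list of 64 peroxisome-associated genes, of which 54 were tested. Averaged over genotypes, limma called 3 higher and 3 lower, 6 of 54 beside the background of 9.48%, and the median log2 fold change was -0.03. Among the called genes were the inducible nitric oxide synthase Nos2 (-1.40, SE 0.18, adjusted p = 1.36e-05) and Acad11, an acyl-CoA dehydrogenase for long chains (-0.65, SE 0.17, adjusted p = 0.00619). Serhl2 was also called, at -0.55 (SE 0.10, adjusted p = 0.000257). Nos2 acts mainly outside peroxisomes and was low, at 1.06 to 12.87 TPM over all rats.

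Mitochondrial beta-oxidation, which finishes the chains that peroxisomes shorten, was also without a call: 0 of 17 genes by limma, beside the background of 9.48%, and a median log2 fold change of 0.03. An unadjusted p under 0.05 was reached by 7 of the 17 (54% of all genes), and the same number passed by adjusted p alone, 5 higher and 2 lower (47.2% of all genes). All 17 had 95% intervals within 0.5 of 0, against 78.3% of all genes. These values average the genotypes. By adjusted p alone, 4 of the 17 were higher and 0 lower in WT rats (21.5% of all genes). In P1.hMR rats 1 was higher and 5 were lower (39.1% of all genes). The interaction was negative for 16 of the 17, against 7206 of 13105 genes, and none was called by limma (smallest adjusted p = 0.704). Of 8 genes for PPAR receptors and their partners, which control many peroxisomal genes, limma called 2 lower averaged over genotypes, beside the background of 9.48%. By adjusted p alone 2 were higher and 2 lower, 4 of 8 beside 47.2% of all genes. The coactivator Ppargc1a was at 1.69 ± 1.16 TPM (SD, n = 3) after UVB against 3.3 ± 0.922 TPM (SD, n = 4) in WT rats. In P1.hMR rats it was at 1.1 ± 0.205 TPM (SD, n = 5) against 3.02 ± 0.45 TPM (SD, n = 5), and the averaged log2 fold change was -0.84 (SE 0.14, adjusted p = 0.000172 from limma). Rxrg, a partner receptor, changed by -0.50 (SE 0.10, adjusted p = 0.000591 from limma) and was low, at 1.29 to 3.67 TPM over all rats. The higher pair were the receptors Ppard, at 0.30 (SE 0.04, adjusted p = 4.03e-05 from limma), and Pparg, at 0.17 (SE 0.05, adjusted p = 0.00925 from limma). Ppara was at 13.94 to 20.21 TPM over all rats and had a log2 fold change of -0.13 (SE 0.07, adjusted p = 0.149 from limma).

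Other gene groups of the gland held called genes. In the same averaged comparison limma called 8 of 24 meibocyte lipid genes, 6 higher and 2 lower, beside the background of 9.48%, with Scd4 at -1.32 (SE 0.11) and Elovl5, an elongase, at 0.75 (SE 0.07). Beside the same background, macrophage genes were called higher for 8 of 13, led by the scavenger receptor Cd163 at 2.61 (SE 0.19), hair keratin genes lower for 16 of 18, skeletal muscle genes lower for 4 of 16, and keratinocyte genes for 1 in each direction of 10, with a median log2 fold change of 0.01. The summed levels overlapped between groups: hair keratin genes summed to 936 to 1890 TPM in control and 438 to 1200 TPM in UVB rats, skeletal muscle genes to 2970 to 5280 and 2260 to 4580 TPM, macrophage genes to 195 to 530 and 238 to 468 TPM, and keratinocyte genes to 12400 to 14900 and 13000 to 18200 TPM. With the skeletal muscle genes as a covariate, 6 of the 12 peroxisome genes kept an adjusted p under 0.05, namely Ech1, Gnpat, Hacl1, Pecr, Pex3 and Prdx5. With the meibocyte lipid genes as a covariate, Hsd17b4, Pex10 and Pex3 lost it. The part of hair follicle, macrophage and keratinocyte content in the small shifts was not tested.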

How the data were processed

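The authors deposited 1 table of TPM values with 2 decimals, written with decimal commas, which were read as decimal points. According to the study's methods, the reads were aligned to rn7 with STAR and quantified with RSEM, while the submitters' processing notes list FastQC, Trimmomatic, DRAGEN and Picard, so the aligner is uncertain. The listed genes summed to between 804378 and 840817 TPM per rat. Counts were not used here, so the count test of the study was replaced by limma 3.58.1 in R 4.3.3 on log2(TPM + 1). Changes of low genes are understated on that scale.

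A single model with 4 group means and a variance trend was fitted to 13105 genes, and p-values were two-sided and adjusted by Benjamini-Hochberg over all of them in each of 6 comparisons. The averaged UVB effect weights both genotypes equally. The model code was run on simulated data with independent genes and UVB changes that were equal in both genotypes. That run did not cover correlated genes, shifts in tissue content or true differences between genotypes. Each labelled sample was treated as 1 rat. The study's methods count the irradiated samples in eyes, and its reporting notes say that a sample was 1 eye or, where both were used, the pool of an animal's eyes. The labels themselves do not tie each sample to its own animal, so p-values measure the spread between samples. No batch was labelled.

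The members and lists were chosen with earlier results of these data known. Named by rule were the called members (none), the 5 most abundant, the most abundant of each role, and the 3 with the smallest interaction p. Up to 4 called genes of each list were eligible, and 1 of these is not reported here. The members at an adjusted p under 0.05 and the others given with values were named after their values were seen. Alternatives were median-of-ratios scaling, quantile normalization, a pseudocount of 0.1, a mean of 5 TPM or more, no filter, no variance trend, only the groups compared, array weights, covariates for meibocyte lipid or skeletal muscle genes, a replicate block, a fold threshold of 1 (log2) or none, and each rat left out. Promoters came from RefSeq (GRCr8), a build other than that of the expression values. Promoter searches and plots used Python 3.11.15, pandas 2.3.3, numpy 2.4.6 and matplotlib 3.10.9.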

Additional observations from a re-analysis of the deposited data

Results flagged for a closer look

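In 8 of 111 gene and group pairs of 4 or 5 rats, 1 rat stood apart from the rest of its group by the ratio of its gap to the nearest rat over the group's range. Chance flags about 1 in 20 groups. Control WT rat 1 accounted for 3 of the 8, with the highest values of Pex5 (364.38 TPM, next rat 254.87), Pex14 (109.45 TPM, next 93.24) and Pex11g (91.92 TPM, next 74.54). It also had the highest summed levels of peroxisome and of meibocyte lipid genes. Pex11a was low in Control WT rat 3 (70.87 TPM, next 89.42). Scp2 was low in Control P1.hMR rat 2 (659.95 TPM, next 733.21). Agps was high in Control WT rat 4 (7.59 TPM, next 7.14), Lonp2 in Control P1.hMR rat 3 (71.87 TPM, next 68.68) and Pex2 in UVB P1.hMR rat 1 (26.72 TPM, next 24.67). Groups of 3 rats were not examined for this.

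For Pxmp4 every UVB WT rat was below the mean of the Control WT rats, while every UVB P1.hMR rat was above the mean of the Control P1.hMR rats. That control mean rested on rats 4 and 5, and without Control P1.hMR rat 4 the P1.hMR change fell from 0.19 to 0.07 on the log2 scale. The interaction was 0.55 on the log2 scale (adjusted p = 0.704 from limma) and did not pass adjustment.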

How the results depend on the processing

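The number of peroxisome genes called was 0 in all 6 comparisons under every alternative run, leaving out any rat included (0 to 0), except that without a fold threshold it became 3 in WT rats, 14 in P1.hMR rats and 12 averaged over genotypes. By adjusted p alone, the 3 genes in WT rats became 1 without the filter, without the variance trend, and with the skeletal muscle or the meibocyte lipid covariate, and ran from 1 to 5 with each rat left out. The 14 in P1.hMR rats became 9 under median-of-ratios scaling and 8 with the skeletal muscle covariate, and ran from 6 to 14. The 12 averaged over genotypes became 6 with the skeletal muscle covariate and ran from 10 to 15. Among the single log2 fold changes recomputed, which were UVB responses and the interactions of 3 genes, direction was kept apart from 3 values near 0: Pex5 averaged over genotypes was -0.01 under quantile normalization and -0.07 with the meibocyte lipid covariate, and Pex10 in WT rats was 0 without UVB WT rat 3, with a range from -0.18 to 0 over the rats left out. Of the other single values, 1192 kept their side of the threshold, 152 lost it and 7 gained it. Genotype effects of single genes were refitted but are not counted among these values. Without UVB WT rat 3, Prdx5 was lower in P1.hMR than in WT rats under UVB at an adjusted p under 0.05 by limma. Abcd2, untested under the filter, had an adjusted p under 0.05 without it in P1.hMR rats and in the average. Fits of only the groups compared could give no value for the average or the interaction. Except where a setting leaves out rats or adds low genes, the cause was not tested. A block for replicate number gave 1 gene in WT rats and 10 in P1.hMR rats. No label pairs the rats. Within each group the replicate numbers follow the ascending order of the numbers in the library names, so the labels give no basis for that block. Same-numbered rats correlated at -0.19 to 0.24 (median -0.01, against 0.01 for other numbers), and 4 of 22 pairs exceeded 0.1. Of 17 rats, 6 correlated best with a rat of their own number, and the number to expect without pairing was not worked out. TPM holds no counts, so what depth limits is unknown.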
